A study of Caenorhabditis elegans with 3 samples.

Results

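The genes described here are 5 regulators of Caenorhabditis elegans development, 4 homeobox genes (ceh-5, ceh-16, ceh-43 and tab-1) and the bZIP gene ces-2, out of 10168 genes listed in either deposited table. They were chosen by name after earlier results of these data were known, the ratios of drsh-1 RNAi to mock among them. ceh-5, ces-2 and tab-1 had been picked out from the lowest of these ratios. The low levels of all 5 in drsh-1 RNAi are therefore given as a description and support nothing. All 5 were listed in both tables, and all 5 had the same mock value in each.

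PolyA RNA was measured by RNA sequencing in young adult animals of a fem-1 strain labelled 2.5 days, all treated with RNAi by feeding. There was 1 library of mock animals, 1 of dcr-1 RNAi and 1 of drsh-1 RNAi. dcr-1 encodes Dicer, which cuts precursors into small RNAs, and drsh-1 encodes Drosha, which releases microRNA precursors in the nucleus. fem-1 is needed for male fates, and XX animals that lack it make oocytes but no sperm. Per the labels, animals that are sterile served for comparison because loss of dcr-1 causes sterility, and the control therefore carries the fem-1 allele as well. Levels are FPKM, sequenced fragments per kilobase of a transcript scaled by the mapped fragments, so levels can be compared between genes. The tables list a gene only where both libraries are above 2 FPKM. A gene that fell under 2 FPKM in an RNAi library is thus missing from that table and from the counts of lower genes below. Without replicates, no difference has an error or a test, and 2-fold serves below as a mark of size. Read depth is unknown. The RNAi targets were at 36.8 FPKM in mock against 23.8 FPKM with dcr-1 RNAi for dcr-1, and at 31.999 FPKM in mock against 20.9 FPKM with drsh-1 RNAi for drsh-1, in the table of that RNAi. The mock value of drsh-1 was 26.2 FPKM in the dcr-1 table, so the tables do not hold the same quantity for it and its lower level with drsh-1 RNAi is uncertain.

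Homeobox genes encode transcription factors that bind DNA through a homeodomain, and many of them assign positions and cell fates in animal embryos. bZIP factors bind DNA as dimers through a basic region followed by a leucine zipper. In the worm embryo such factors act for short periods in small sets of cells, in the epidermis, the nervous system and lineages in which cells die by program. RNA of whole animals cannot tell fewer cells of a type from less RNA per cell, and it does not show in which cells these genes were transcribed.

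All 5 genes were lower in drsh-1 RNAi than in mock, by 2.77-fold to 8.13-fold, and 4 of them were also at least 2-fold lower in dcr-1 RNAi. The exception was ces-2, which kept 73.8% of its mock level with dcr-1 RNAi and 10.8% with drsh-1 RNAi. In mock the order of levels was ceh-43, ceh-5, tab-1, ces-2 and ceh-16, and the highest was 8.75 times the lowest. With dcr-1 RNAi the order became ceh-43, ces-2, ceh-5, tab-1 and ceh-16. In drsh-1 RNAi it was ceh-43, tab-1, ceh-5, ces-2 and ceh-16, with the highest 19.99 times the lowest. With 1 library per group, whether neighbours in these orders differ beyond the spread between samples could not be determined.

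**Figure D1:**
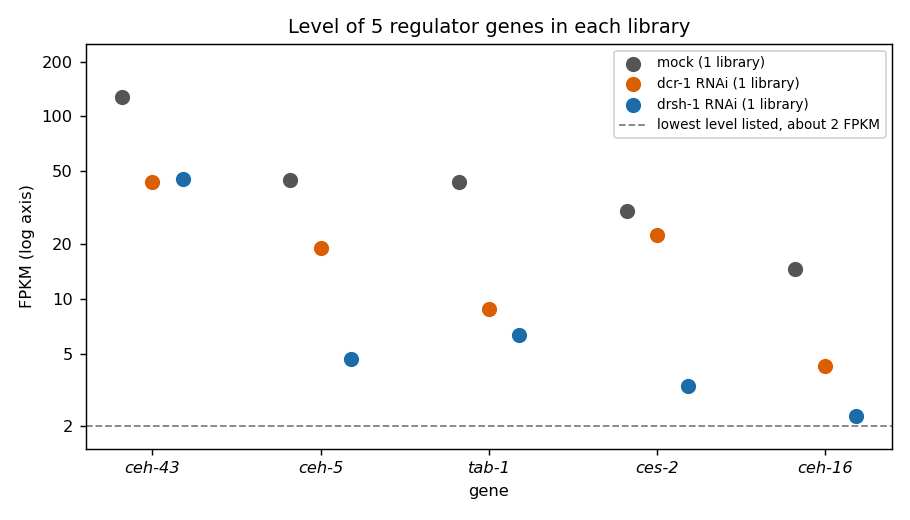
FPKM (log axis) of the 5 genes in the 3 libraries, 1 point per library, with the lowest listed level of about 2 FPKM as a dashed line. Mock is the highest point for every gene, ces-2 in dcr-1 RNAi (22.5 FPKM) lies close to its mock point (30.4 FPKM), and ceh-16 in drsh-1 RNAi (2.27 FPKM) lies just above the line.

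ceh-43 is the worm relative of Distal-less, and it is known for roles in the anterior epidermis and in the dopaminergic neurons. It was at 127.6 FPKM in mock against 43.8 FPKM with dcr-1 RNAi and 45.4 FPKM with drsh-1 RNAi. Both RNAi libraries were thus at a similar level, 34.3% and 35.6% of mock, and their direct log2 ratio, dcr-1 RNAi over drsh-1 RNAi, was -0.05. Its log2 ratios to mock, computed like all ratios below on (FPKM + 1), were -1.52 with dcr-1 RNAi and -1.47 with drsh-1 RNAi. In mock, 90.1% of the genes of the drsh-1 table were below it, and it was the only one of the 5 that stayed far from the listing limit in both RNAi libraries.

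ceh-16 is the worm engrailed gene, which acts in the seam cells, a row of epidermal stem cells on each side of the animal. It was at 14.6 FPKM in mock against 4.27 FPKM with dcr-1 RNAi and 2.27 FPKM with drsh-1 RNAi. Both RNAi libraries were low, at 29.3% and 15.6% of mock, with log2 ratios of -1.56 and -2.25. The drsh-1 RNAi value was 1.14 times the 2 FPKM limit, under which the gene would have been missing from that table.

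tab-1, a homeobox gene related to the brain-specific homeobox gene of Drosophila, was at 43.5 FPKM in mock against 8.74 FPKM with dcr-1 RNAi and 6.35 FPKM with drsh-1 RNAi. It was low in both RNAi libraries, at 20.1% and 14.6% of mock, and its log2 ratio of -2.19 in dcr-1 RNAi was the lowest of the 5 there. In drsh-1 RNAi the log2 ratio was -2.60. Counted from the lowest ratio, it had rank 66 of 9631 genes with dcr-1 RNAi and rank 9 of 9996 with drsh-1 RNAi.

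ceh-5 is a homeobox gene related to the vertebrate Vax genes. It was at 45.04 FPKM in mock against 18.97 FPKM with dcr-1 RNAi and 4.66 FPKM with drsh-1 RNAi. The libraries were thus graded, with 42.1% of mock with dcr-1 RNAi and 10.4% with drsh-1 RNAi, and log2 ratios of -1.20 and -3.02. The latter had rank 3 from the lowest among those of its library. In the annotation of assembly WBcel235, ceh-5 overlaps ocrl-1 on the opposite strand, and 73 of its 600 exon bases are also exon bases of ocrl-1. Whether the authors' counting used strand is not given in the sources used here, and without strand the reads of this overlap cannot be told apart. ocrl-1 itself was at 43.9 FPKM in mock against 38.01 FPKM with dcr-1 RNAi and 51.1 FPKM with drsh-1 RNAi.

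ces-2 encodes a bZIP protein related to the mammalian hepatic leukemia factor, and it is known for promoting programmed death of the sister cells of the NSM neurons by repressing ces-1, a Snail-family gene. It was at 30.4 FPKM in mock against 22.5 FPKM with dcr-1 RNAi and 3.30 FPKM with drsh-1 RNAi. Only the drsh-1 RNAi library was low. The log2 ratio to mock was -0.42 in dcr-1 RNAi, where 19.03% of all genes had a lower ratio, and -2.87 in drsh-1 RNAi, where it ranked 6th from the lowest.

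The background differed between the comparisons. Of the genes in the drsh-1 table, 1.59% were at least 2-fold lower than mock, beside 5 of 5 of these genes, whose selection used that contrast. In the dcr-1 table the share at least 2-fold lower was 6.53%, beside 4 of 5. Nothing is read from these counts, because the genes were chosen with earlier results known and both ratios use the same mock value. The median log2 ratio of the 5 genes was -2.60 with drsh-1 RNAi and -1.52 with dcr-1 RNAi, beside medians over all genes of 0.00 and 0.06. Both comparisons share the 1 mock library, so a mock value that is high by error would lower both ratios of a gene, and the ratios are no independent observations.

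**Figure D2:**
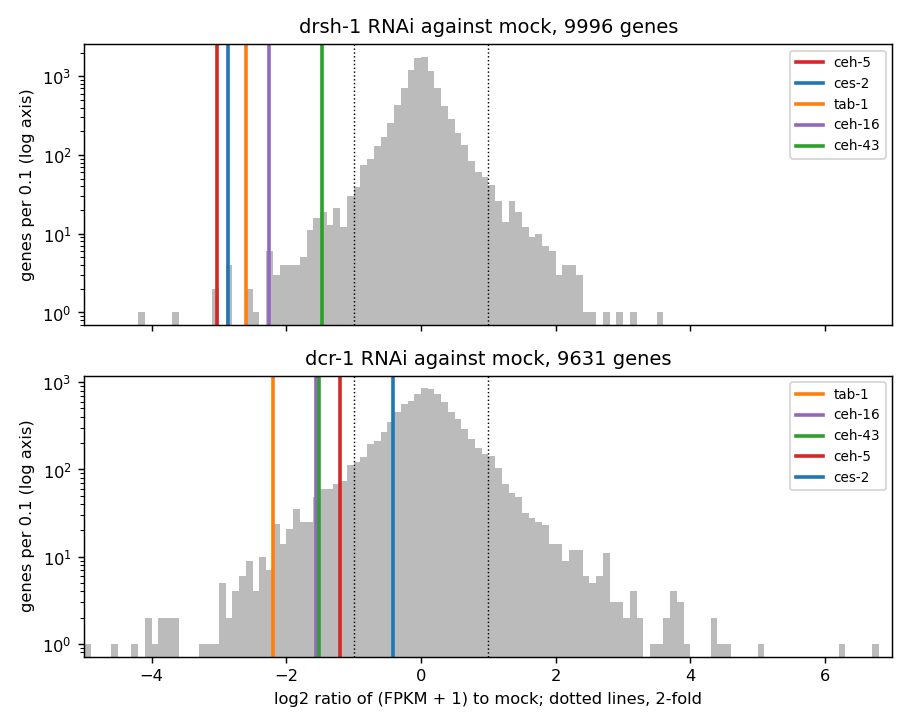
Number of genes (log axis) by log2 ratio of (FPKM + 1) to mock, for drsh-1 RNAi (9996 genes, upper panel) and dcr-1 RNAi (9631 genes, lower panel), with the 5 described genes as coloured lines and 2-fold as dotted lines. The 5 lines lie at -3.02 to -1.47 in drsh-1 RNAi, whereas in dcr-1 RNAi they lie at -2.19 to -0.42 in a wider distribution.

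The direct comparison of the RNAi libraries uses the drsh-1 RNAi values that entered the choice of the 5 genes, so it is a description too. ces-2 was higher in dcr-1 RNAi than in drsh-1 RNAi by 2.45 on the log2 scale and ceh-5 by 1.82. These 2 of 5 genes were at least 2-fold higher in dcr-1 RNAi, where the share was 4.29% over the 9043 genes whose mock values were equal in both tables, and nothing is read from this because low drsh-1 RNAi values entered the choice. The differences were 0.69 for ceh-16, 0.41 for tab-1 and -0.05 for ceh-43, all within 2-fold.

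Most other homeobox genes did not show the low ratios of these 4 in drsh-1 RNAi. This contrast is partly built in, because that ratio entered the choice of the 4 genes, and nothing is read from it. Of 97 other homeobox names, 25 were listed in the drsh-1 table. Of the 25, 1 was at least 2-fold lower, beside 1.59% of all genes, and 0 at least 2-fold higher, beside 1.91%. Their median log2 ratio was -0.02. The 1 gene was unc-39, a homeobox gene of the sine oculis family, at 53.5 FPKM in mock against 14.2 FPKM with dcr-1 RNAi and 17.7 FPKM with drsh-1 RNAi. It was low in both RNAi libraries, with log2 ratios of -1.84 and -1.55. Among the 25, ceh-13, the worm labial gene, was next at 9.05 and 5.24 FPKM in mock and drsh-1 RNAi (log2 ratio -0.69). mls-2, at 11.4 FPKM in mock and 5.63 FPKM with dcr-1 RNAi, was not listed for drsh-1 RNAi. A fall under 2 FPKM there would leave it out of the count of lower genes.

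In dcr-1 RNAi, 17 of the 21 other listed homeobox genes were below mock, with a median log2 ratio of -0.41, while 44.5% of all genes were below mock. Of the 21, only unc-39 was at least 2-fold lower, beside 6.53% of all genes. ceh-21, at 6.85 FPKM in mock, was listed only for drsh-1 RNAi, so a fall under 2 FPKM with dcr-1 RNAi would not be counted. With the 4 described genes this made 5 homeobox genes, and 8 with a pseudocount of 0.1 FPKM. pal-1, the worm caudal gene, which patterns the posterior embryo, was the 1 gene at least 2-fold higher, beside 6.71% of all genes, at 8.68 FPKM in mock against 39.2 FPKM with dcr-1 RNAi. Its mock value was 41.9 FPKM in the drsh-1 table, so the tables do not hold the same quantity for it, and its ratio of 2.05 cannot be read as a difference between libraries. Of the homeobox names, 71 were in neither of the tables, 5 stood only in the drsh-1 table and 1, mls-2, only in the dcr-1 table. The list therefore covers the family in part, and falls under 2 FPKM are left out.

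Among bZIP genes, ces-2 was the only one of 14 listed that was at least 2-fold lower in drsh-1 RNAi. It had been picked by that ratio, and 0 of the other 13 is near the 1.59% of all genes. The other 13 lay between -0.46 (zip-2) and 0.85 (zip-3), with a median log2 ratio of 0.18. With dcr-1 RNAi their median was 0.22, but it was -0.39 over the 11 of them with equal mock values, without crh-1 and zip-5, so no direction can be given. atf-6, a sensor of stress in the endoplasmic reticulum, was at 8.83 FPKM in mock against 3.05 FPKM with dcr-1 RNAi (-1.28). zip-3 was at 7.57 and 23.5 FPKM (1.52), and atf-5 at 38.6 and 89.04 FPKM (1.19).

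**Figure D3:**
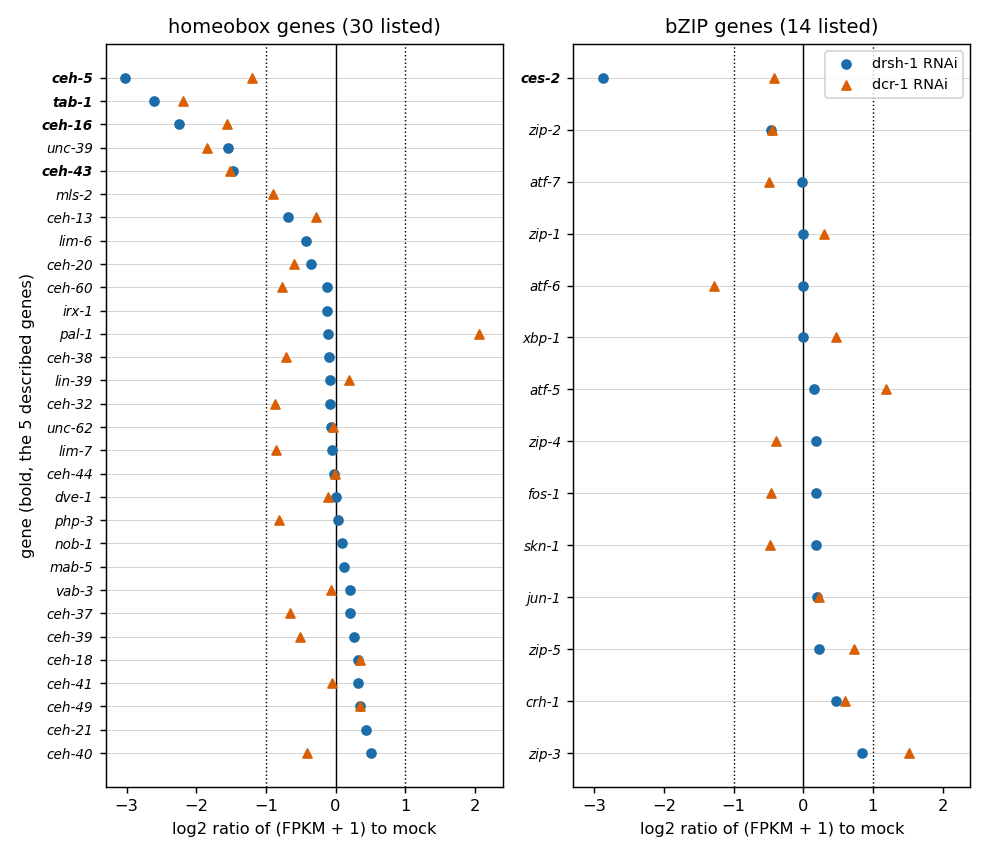
Log2 ratio of (FPKM + 1) to mock for each listed homeobox gene (left) and bZIP gene (right), circles for drsh-1 RNAi and triangles for dcr-1 RNAi, with 2-fold as dotted lines and the 5 described genes in bold. In drsh-1 RNAi the circles beyond 2-fold are those of ceh-5, tab-1, ceh-16, unc-39, ceh-43 and ces-2, and the triangle of pal-1 at 2.05 rests on a mock value that differs between the tables.

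The known partners of these genes were next examined. In the cell death pathway of ces-2, its target ces-1 was in neither table. egl-1, the BH3-only activator of cell death that ces-1 represses, was at 7.19 FPKM in mock against 5.34 FPKM with dcr-1 RNAi and 7.80 FPKM with drsh-1 RNAi. The caspase gene ced-3 was at 47.8, 36.6 and 46.4 FPKM in mock, dcr-1 RNAi and drsh-1 RNAi. Neither gene was 2-fold apart from mock in either library. The drsh-1 log2 ratios were -0.01 for ced-4, the caspase activator, and -0.19 for ced-9, the inhibitor of cell death, and in dcr-1 RNAi they were -0.29 and 0.29. Of 26 listed genes of cell death and engulfment, 0 were at least 2-fold apart in drsh-1 RNAi (median -0.01). This is near the shares of all genes, 1.59% lower and 1.91% higher. cep-1 (5.17 FPKM in mock) was listed only for dcr-1 RNAi and tra-1 (4.77 FPKM) only for drsh-1 RNAi. A fall of either under 2 FPKM in the RNAi library where it is not listed would not be counted. In dcr-1 RNAi, 2 of 26 were at least 2-fold lower, the nuclease genes crn-6 (-1.15) and nuc-1 (-1.04), a share near the 6.53% of all genes.

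Around ceh-16, the fusion gene eff-1, which engrailed represses in seam cells, was in neither table. lin-26, a zinc finger gene that maintains epidermal fate, was at 24.8 FPKM in mock against 22.1 FPKM with dcr-1 RNAi and 8.90 FPKM with drsh-1 RNAi. It was low only in drsh-1 RNAi, with log2 ratios of -0.16 and -1.38. The epidermal GATA factor gene elt-1 was at 6.47 FPKM in mock against 2.97 FPKM with drsh-1 RNAi (-0.91), while the seam GATA factor gene egl-18 was at 16.2 and 16.3 FPKM (0.01). elt-6, a related GATA factor gene, was listed only for dcr-1 RNAi (-0.34), and nhr-25 was in neither table. elt-6 was at 6.52 FPKM in mock, and a fall under 2 FPKM in drsh-1 RNAi would leave it out of the count there. Of 15 listed seam and epidermal fate genes, lin-26 was the 1 at least 2-fold lower in drsh-1 RNAi, beside 1.59% of all genes. There grd-3, a hedgehog-related gene, was the 1 at least 2-fold higher (1.02), beside 1.91%. In dcr-1 RNAi pop-1, the TCF factor of Wnt signalling, was the 1 at least 2-fold lower (-1.85), and grd-10 (1.60) and grd-3 (1.26) were at least 2-fold higher. For all genes the shares in dcr-1 RNAi were 6.53% and 6.71%, so 1 lower gene of 15 is near the background.

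Of the factors reported to act with ceh-43 in dopaminergic neurons, ceh-20, a TALE homeobox cofactor, was at 31.98 FPKM in mock against 20.9 FPKM with dcr-1 RNAi and 24.9 FPKM with drsh-1 RNAi. Its log2 ratios were -0.59 and -0.35. ast-1, cat-2 and dat-1, an ETS factor, the tyrosine hydroxylase and the dopamine transporter, were in neither table. unc-62, another TALE gene, had log2 ratios of -0.03 with dcr-1 RNAi and -0.07 with drsh-1 RNAi, with mock values that differ between the tables. cat-4 and bas-1, which serve dopamine and serotonin synthesis, were higher in dcr-1 RNAi, with log2 ratios of 1.32 and 1.85, and had 0.26 and 0.47 in drsh-1 RNAi.

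The list of embryonic cuticle and apical matrix genes was written with the low values of dpy-14 and sqt-3 known. In drsh-1 RNAi all 5 of its listed genes were at least 2-fold lower, beside 1.59% of all genes, with a median log2 ratio of -2.20. Nothing is read from this count, which includes dpy-14 and sqt-3. Another 4 genes were listed only for dcr-1 RNAi, and 9 of the 18 names were in neither table. The 4 were dpy-17, let-653, lpr-3 and dpy-10, at 21.7, 5.40, 4.46 and 4.22 FPKM in mock. A fall under 2 FPKM in drsh-1 RNAi would leave them out, so the counts for the 2 RNAi libraries cover different genes. The collagen gene dpy-14 was at 60.4 FPKM in mock against 60.8 FPKM with dcr-1 RNAi and 7.30 FPKM with drsh-1 RNAi, and the collagen gene sqt-3 at 31.5, 28.2 and 5.85 FPKM. The others were sym-1 (-2.20), noah-2 (-1.93) and noah-1 (-1.86), which encode extracellular matrix proteins. In dcr-1 RNAi, 0 of 9 listed genes were at least 2-fold apart, beside 6.53% of all genes lower and 6.71% higher, and the median was -0.12.

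Among 25 listed genes of epithelial junctions and morphogenesis, dlg-1, the junction gene discs large, was the 1 at least 2-fold lower in drsh-1 RNAi. The share over all genes was 1.59%. dlg-1 was at 29.6 FPKM in mock against 13.1 FPKM with dcr-1 RNAi and 8.76 FPKM with drsh-1 RNAi. The list's median log2 ratio was -0.14 there and -0.34 in dcr-1 RNAi. In dcr-1 RNAi 4 of 24 were at least 2-fold lower, beside 6.53% of all genes. They were the actin regulator gene unc-34 (-2.11), dlg-1 (-1.12), the ephrin gene vab-2 (-1.10) and the polarity gene let-413 (-1.05). Of embryonic lineage regulators, sox-2, an HMG-box gene of neural and epidermal precursors, was the 1 of 25 at least 2-fold lower in drsh-1 RNAi, beside 1.59% of all genes. It was at 29.8 FPKM in mock against 10.7 FPKM with dcr-1 RNAi and 6.50 FPKM with drsh-1 RNAi. The T-box genes tbx-38 (2.19), tbx-37 (1.39) and tbx-33 (1.10) and the forkhead gene fkh-4 (1.003) were at least 2-fold higher there, beside 1.91% of all genes. Their mock levels were 2.38, 2.46, 3.98 and 6.13 FPKM. The T-box genes were thus too near the 2 FPKM limit for a 2-fold fall to be listed. In dcr-1 RNAi sox-2 (-1.40) and tbx-11 (-1.06) were at least 2-fold lower, 2 of 23 listed, near the 6.53% of all genes. die-1 (13.07 FPKM in mock) and nob-1 (2.67 FPKM) were listed only for drsh-1 RNAi. A fall of either under 2 FPKM with dcr-1 RNAi would not be counted.

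Markers of embryos and of other cells were set beside these values. The summed level of 7 early zygotic markers was 42.3 FPKM in mock against 39.8 FPKM with dcr-1 RNAi and 125.3 FPKM with drsh-1 RNAi. Of the 19 markers, 12 were in neither table, and 5 of 7 were at least 2-fold higher in drsh-1 RNAi, beside 1.91% of all genes. tbx-38, tbx-37, pes-10, ref-1 and vet-6 were at 2.38 to 4.60 FPKM in mock, where a 2-fold fall could not be listed. The markers were also chosen with earlier results known, so no conclusion is drawn from this count. tbx-37 and tbx-38 are among the lineage regulators above as well. Early zygotic genes are switched on in the early embryo, and the sum of these 7 was highest in drsh-1 RNAi. The sum of 10 oocyte markers was 3840 FPKM in mock against 3532 FPKM with dcr-1 RNAi and 4408 FPKM with drsh-1 RNAi. That of 5 sperm markers was 21.5, 37.1 and 18.2 FPKM in the same order, each marker being under 10 FPKM, and 28 of the 34 sperm names were in neither table. The sum of 7 neuronal markers was 434 FPKM in mock against 423 FPKM with dcr-1 RNAi and 399 FPKM with drsh-1 RNAi. That of 3 adult cuticle collagens was 2067, 9964 and 2825 FPKM. The part of a differing number or stage of embryos, or of epidermal cells, in the values of the 5 genes was not tested.

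**Figure D4:**
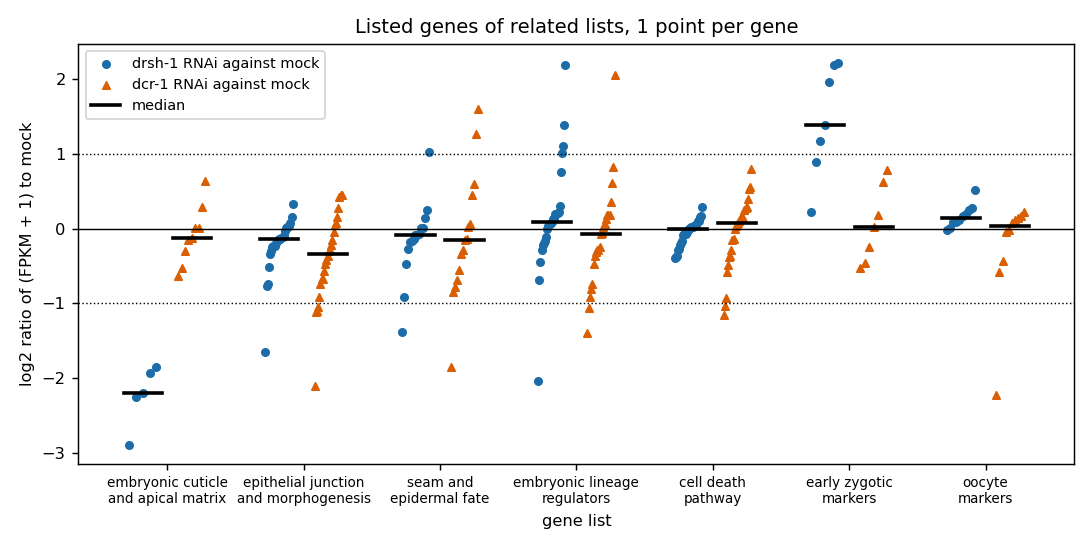
Log2 ratio of (FPKM + 1) to mock for listed genes of 7 lists, 1 point per gene, circles for drsh-1 RNAi and triangles for dcr-1 RNAi, with the median as a bar and 2-fold as dotted lines. The 5 circles of the embryonic cuticle and apical matrix list lie at -2.89 to -1.86, the circles of the early zygotic markers lie at 0.22 to 2.21, and the circles of the cell death pathway lie within 2-fold.

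Genes that flank the 5 regulators in the WBcel235 annotation were not low with them in drsh-1 RNAi. Of 20 flanking positions, 2 protein-coding genes on each side of each regulator, 14 held a gene listed in the drsh-1 table. These lay between -0.52 and 0.35 on the log2 scale, with a median of 0.03 and 0 of 14 at least 2-fold apart. Of all genes, 1.59% were at least 2-fold lower there and 1.91% higher, so 0 of 14 is near the background. In dcr-1 RNAi 13 were listed, and 2 were at least 2-fold lower, eat-16 (-1.12) and gfi-2 (-1.08), both beside ceh-5. Another 2 were at least 2-fold higher, ZK909.3 (1.72) beside ces-2 and nex-3 (1.41) beside ceh-43. For all genes the dcr-1 RNAi shares were 6.53% lower and 6.71% higher. ceh-5 in dcr-1 RNAi, at -1.20, was thus close to these 2 flanking genes, while ocrl-1, which overlaps it, was at -0.20. ceh-16 shares 57 of its 922 exon bases with polk-1 on the opposite strand, and polk-1 was above mock with drsh-1 RNAi (0.35) as with dcr-1 RNAi (0.60), with mock values that differ between the tables.

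**Figure D5:**
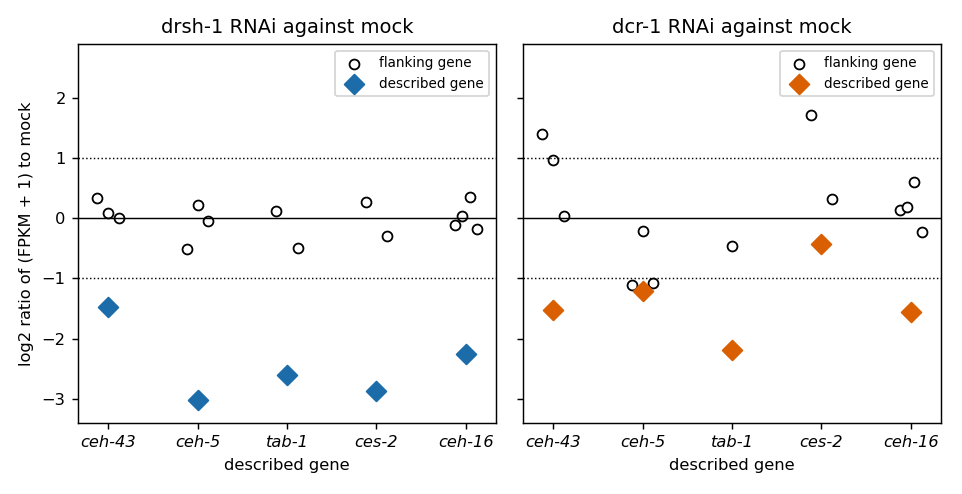
Log2 ratio of (FPKM + 1) to mock for each of the 5 genes (diamonds) and its listed flanking genes in WBcel235 (open circles), for drsh-1 RNAi (left) and dcr-1 RNAi (right), with 2-fold as dotted lines. In drsh-1 RNAi every open circle lies within 2-fold and every diamond beyond it, while in dcr-1 RNAi the diamond of ceh-5 at -1.20 lies beside 2 open circles.

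All 5 are protein-coding genes with short transcripts in WBcel235. Longest coding lengths were 402 bases for ceh-5, 561 for ceh-16, 591 for tab-1, 633 for ces-2 and 846 for ceh-43. ceh-5 and ces-2 have 1 annotated transcript and the other three have 2.

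The genes nearest to each regulator were found over the 2 log2 ratios to mock, that is over 3 libraries, among the 9043 genes with equal mock values. Nearest to ceh-43 were fbxb-66, bath-10 and igcm-3, at distances of 0.03 to 0.06. igcm-3, which encodes an immunoglobulin-domain protein, was at 73.6 FPKM in mock against 25.8 FPKM with dcr-1 RNAi and 26.7 FPKM with drsh-1 RNAi. Nearest to ceh-16 were nlr-1, a neurexin-like gene (0.19), sox-2 (0.27) and Y7A9D.1 (0.30). Nearest to tab-1 were C05B5.4 (0.34), K06A4.7 (0.37) and the Frizzled receptor gene cfz-2 (0.59).

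ceh-5 was nearest to K06A1.3, at a distance of 0.11, which was at 70.96 FPKM in mock against 28.02 FPKM with dcr-1 RNAi and 7.95 FPKM with drsh-1 RNAi, and then to F47G4.6 (0.23) and F54A5.2 (0.64). ces-2 had no gene as close. dpy-14 was at 0.43, the insulin-like peptide gene ins-2 at 0.44 and sqt-3 at 0.68. ins-2 was at 27.3 FPKM in mock against 16.1 FPKM with dcr-1 RNAi and 3.83 FPKM with drsh-1 RNAi, low in drsh-1 RNAi as ces-2 was. Distances are larger where few genes have such ratios, and they describe these 3 libraries only.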

How the data were processed

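The authors deposited 2 tables without header, each with a gene name, FPKM of mock, FPKM of 1 RNAi library and the log2 of their ratio after 1 FPKM was added to each, as recomputation showed. Mock was taken as the column that both tables share and that is the ratio's denominator, and the RNAi library from the table's name. Tools named without roles in the submitters' processing notes are Cuffdiff 2.1.1, TopHat2 2.06, Cufflinks, SAMtools and CASAVA 1.8.2. Build, annotation, strand use and scaling between libraries are not given in the sources used here. No coordinates are therefore printed, and gene order, overlap and coding length come from WBcel235 annotations. No reads could be recovered from the FPKM values: the 485 genes under 4 FPKM in both libraries of the drsh-1 table gave 485 distinct ratios.

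Ratios were recomputed with Python 3.11.15 and pandas 2.3.3 with a pseudocount of 1 FPKM, which understates ratios of low genes. The calculation was tested on simulated data. Members and lists were chosen with earlier results of these data known. Named genes are the members, the 3 nearest genes of each by Euclidean distance, fixed pathway partners, the targeted genes and up to 6 genes per list and comparison at least 2-fold from mock. Markers and flanking genes are given beside them. Alternatives were 2 other pseudocounts, a mean of at least 5 FPKM, 2 scalings and equal mock values only.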

Additional observations from a re-analysis of the deposited data

How the results depend on the processing

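All 5 genes stayed at least 2-fold lower than mock in drsh-1 RNAi, and the same 4 in dcr-1 RNAi, under pseudocounts of 0.1 and 5 FPKM, a mean of at least 5 FPKM, centring on the median, a common upper quartile and equal mock values only. The mean of at least 5 FPKM and the equal mock values are filters of genes, which cannot change the ratio of a gene. The log2 ratio in drsh-1 RNAi ranged from -3.24 to -2.37 for ceh-5, -3.17 to -2.09 for ces-2, -2.76 to -2.10 for tab-1, -2.63 to -1.43 for ceh-16 and -1.49 to -1.40 for ceh-43. In dcr-1 RNAi the ranges were -1.27 to -1.06 for ceh-5, -0.49 to -0.37 for ces-2, -2.30 to -1.82 for tab-1, -1.75 to -1.08 for ceh-16 and -1.59 to -1.44 for ceh-43. With a pseudocount of 5 FPKM, which shrinks ratios of low genes by construction, all genes at least 2-fold higher and lower were 409 and 407 in dcr-1 RNAi and 99 and 89 in drsh-1 RNAi, against 646 and 629 and 191 and 159. In dcr-1 RNAi the homeobox list, the 4 genes included, then had a median of -0.41 instead of -0.59, and 0 bZIP genes instead of 1 were at least 2-fold lower. With 0.1 FPKM, 8 homeobox genes instead of 5 were at least 2-fold lower in dcr-1 RNAi. With equal mock values only, 0 homeobox genes instead of 1 were at least 2-fold higher there, since pal-1 drops out, and the bZIP median was -0.41 instead of -0.08. No paired analysis was possible because each group has 1 library. Depth is unknown, and values near 2 FPKM, such as ceh-16 in drsh-1 RNAi, are the least certain.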
